A study of Homo sapiens with 12 samples.

Results

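The genes described here are 9 midbrain and hindbrain patterning genes, EN1, EN2, GBX2, PAX2, PAX8, FGF8, IRX2, IRX3 and IRX5. They were taken by symbol from a table of 59050 gene symbols, and all 9 were found. The study set HUES8, an established human embryonic stem cell line (genotype WT; hereafter ESC), beside neural progenitors derived from it (hereafter NPC). ESC were grown in mTeSR1. NPC had passed through 7 days of neural induction with the TGF-beta receptor inhibitor SB431542 (2.5 uM, left out for the last 2 days) and the BMP receptor inhibitor LDN193189 (0.05 uM), and the protocol names no added WNT agonist, FGF or retinoid. Libraries were sequenced for each state, from rRNA-depleted total RNA and from RNA bound to ribosomes, giving 3 libraries in each of 4 groups. Every group came from the same line, and the labels do not say that the 3 libraries of a group were separate cultures, so the p-values measure only the spread between these libraries. The sources used here do not say how ribosomes were isolated.

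In the embryo the midbrain and hindbrain meet at the isthmus, a signalling centre that patterns the tissue on both sides. OTX2 marks the forebrain and midbrain side and GBX2 the hindbrain side, and the boundary between these homeodomain factors sets where FGF8, the secreted signal of the isthmus, is made. PAX2 and EN1 appear early around that boundary and PAX5, PAX8 and EN2 follow, while the Iroquois homeodomain factors (IRX) divide the neural plate further and respond to signals along both of its axes. Several of these genes are not private to the midbrain and hindbrain: PAX2 also marks optic stalk, otic and kidney cells, PAX8 thyroid and kidney, FGF8 the primitive streak and the anterior edge of the forebrain, and GBX2 is made in pluripotent cells.

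The stretches just before the transcription starts of 4 members are shown because these genes took different courses: PAX2 rose most, IRX2 and GBX2 changed differently in the 2 assays, and EN2 stayed near the detection limit. Each is the 250 bases before a start in RefSeq (GRCh38.p14), written 5′ to 3′ along the gene's own strand. PAX2 has 2 start entries, at chr10:100735146-100735395 and chr10:100745332-100745581, both plus strand. The IRX2 stretch is chr5:2751678-2751927 (minus strand), that of GBX2 chr2:236168387-236168636 (minus strand) and that of EN2 chr7:155457879-155458128 (plus strand).
PAX2, upstream start: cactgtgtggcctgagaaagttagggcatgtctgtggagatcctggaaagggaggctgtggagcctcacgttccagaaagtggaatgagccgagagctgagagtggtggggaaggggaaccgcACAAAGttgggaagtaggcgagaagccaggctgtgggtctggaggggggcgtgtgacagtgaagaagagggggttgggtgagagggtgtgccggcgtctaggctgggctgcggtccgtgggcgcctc
PAX2, downstream start: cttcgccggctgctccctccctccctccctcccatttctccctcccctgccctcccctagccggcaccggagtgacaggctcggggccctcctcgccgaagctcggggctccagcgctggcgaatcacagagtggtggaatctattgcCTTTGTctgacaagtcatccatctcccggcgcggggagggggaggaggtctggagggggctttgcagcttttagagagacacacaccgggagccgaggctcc
IRX2: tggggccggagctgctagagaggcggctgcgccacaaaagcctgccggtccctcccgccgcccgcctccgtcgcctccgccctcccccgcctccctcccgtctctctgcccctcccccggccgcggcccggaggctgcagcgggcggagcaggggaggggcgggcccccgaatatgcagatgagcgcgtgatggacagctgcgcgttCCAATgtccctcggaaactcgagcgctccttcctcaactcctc
GBX2: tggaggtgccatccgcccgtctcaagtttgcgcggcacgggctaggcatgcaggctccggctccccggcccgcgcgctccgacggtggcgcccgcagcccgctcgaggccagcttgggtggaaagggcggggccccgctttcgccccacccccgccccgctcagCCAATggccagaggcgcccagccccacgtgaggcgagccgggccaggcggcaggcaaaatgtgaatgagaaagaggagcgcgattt
EN2: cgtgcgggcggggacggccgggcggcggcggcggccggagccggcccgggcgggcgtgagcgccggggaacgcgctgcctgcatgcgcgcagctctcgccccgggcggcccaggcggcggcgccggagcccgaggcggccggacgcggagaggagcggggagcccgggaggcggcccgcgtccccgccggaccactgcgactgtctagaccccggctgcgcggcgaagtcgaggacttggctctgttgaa
Capitals mark every match, on either strand, to 6 short motifs: TAATTA (a homeodomain core), TAATCC (OTX), ACANNTGT (Iroquois), CCAAT (the CCAAT box), TATAAA (the TATA box) and ACAAAG (SOX).

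Both PAX2 stretches held a single match, to ACAAAG, 127 bases before the upstream start and, read on the other strand, 102 bases before the downstream one; the starts lie 10.2 kb apart. ACAAAG was present in 13.7% of the 35114 stretches of the same length in the RefSeq table. IRX2 and GBX2 each held a CCAAT, 43 and 86 bases before the start, a motif found in 32.0% of all stretches. EN2 held none of the 6 motifs. The homeodomain core, found in 4.35% of all stretches, the OTX motif in 5.62%, the Iroquois motif in 4.71% and the TATA box in 10.7%, matched nowhere in the printed ones. The EN2 stretch was the richest of the 5 in G and C, at 81.2% with 45 CpG, against medians of 58.0% and 11 over all stretches. GBX2 had 72.0% with 28 CpG, IRX2 72.8% with 27, and the PAX2 stretches 61.6% with 10 and 66.0% with 15. These matches describe the letters and do not show that a factor binds there.

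Total counts were 19529738 to 35117370 in the RNA libraries and 2422756 to 4451196 in the ribosome-bound libraries. Levels are given as CPM, counts scaled to a common library total, which are not divided by gene length, so they compare a gene across libraries and not genes with each other. Over the tested genes, log2 CPM of replicate pairs correlated at 0.975 or above except for RIBO_ESC replicate 2, at 0.927 and 0.940 with the other two. RNA_ESC replicate 3 correlated at 0.980 and 0.976 with its group, where the other two correlated at 0.996. The cell state labels were checked on markers: all 6 pluripotency markers fell in both assays, with a summed RNA level of 2890 to 3245 CPM in ESC and 214 to 218 CPM in NPC, and 5 of 6 neural progenitor markers rose in RNA, with a summed level of 487 to 529 CPM in ESC and 1010 to 1058 CPM in NPC. In ribosome-bound RNA 4 of these 6 rose, and SOX2 and NES did not pass. The summed level of the 6 there was 314 to 643 CPM in ESC and 690 to 946 CPM in NPC. In both assays most of this sum came from NES and SOX2, so it says little of the other markers. In bulk libraries like these, fewer cells of a type and less RNA per cell cannot be told apart.

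In total RNA, 8 of the 9 members had enough counts to be tested. PAX2, FGF8, IRX2, IRX3, IRX5 and PAX8 rose during neural induction, GBX2 fell, and EN2 did not pass the test. The threshold was an adjusted p of 0.05 in edgeR's quasi-likelihood test with Benjamini-Hochberg adjustment over all tested genes. Of the 18631 genes tested in RNA, 52.6% passed it, 26.4% as higher and 26.2% as lower in NPC. The median log2 fold change of the 8 members was 1.69, beside 0.03 over all tested genes. In ribosome-bound RNA, 6 members were tested; PAX2, FGF8, IRX2, IRX3 and IRX5 rose, GBX2 did not pass, and 61.8% of the 12250 genes tested passed, 31.6% as higher and 30.3% as lower. The median of those 6 members was 2.57, beside -0.01 over all tested genes. Some members passed the filter on low counts only through their NPC libraries, so these counts and medians describe the tested members and not all 9.

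**Figure D1:**
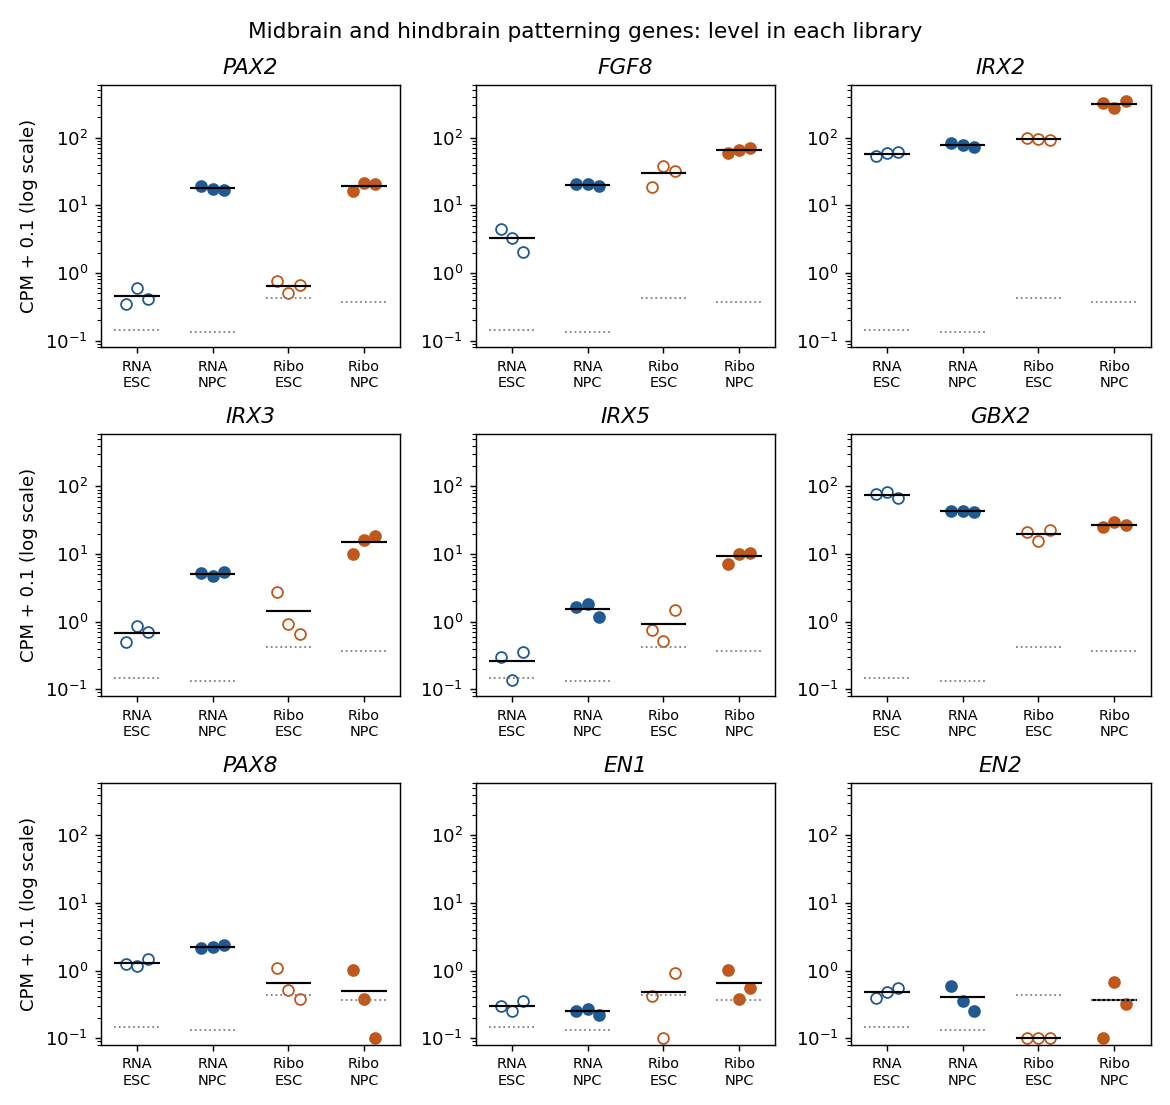
Level of each of the 9 genes in each of the 12 libraries, as CPM plus 0.1 on a log axis; open points are ESC, filled points NPC, blue total RNA and orange ribosome-bound RNA. Solid bars are group means and dotted lines mark 3 counts over the group. PAX2 is 0.246 to 0.499 CPM in the RNA of ESC and 16.5 to 18.9 CPM in that of NPC, while the RNA means of EN1 and EN2 stay between 0.149 and 0.380 CPM in both states.

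The signal of the isthmus, FGF8, was present in both states and rose in both assays. The gene lies at chr10:101770109-101780369. In total RNA the 3 ESC libraries had 4.28, 3.15 and 1.95 CPM and the 3 NPC libraries 20.2, 20.4 and 19.2 CPM. In ribosome-bound RNA, ESC had 18.6, 37.6 and 32.4 CPM and NPC 59.6, 66.3 and 69.9 CPM. Every NPC library was above every ESC library in each assay, and the ESC libraries were the more scattered. The rise was 6.05-fold in RNA (log2 2.60 ± 0.26 SE, n = 3 per state, adjusted p = 0.000103, edgeR) and 2.26-fold in ribosome-bound RNA (log2 1.17 ± 0.26, adjusted p = 0.00203, edgeR).

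The rise of FGF8 was thus smaller on ribosomes than in total RNA, and that difference was tested as the change in translational efficiency (ribosome-bound relative to total RNA), by an interaction of assay and state. It was -1.48 ± 0.37 on the log2 scale (adjusted p = 0.00524, edgeR), and -1.02 (adjusted p = 0.0005) without RNA_ESC replicate 3 and RIBO_ESC replicate 2 together. Of the 11866 genes tested for this ratio, 41.9% passed, 22.9% as higher and 19.0% as lower in NPC. The log2 ratio of mean ribosome-bound to mean total RNA (each CPM plus 0.5) of FGF8 was 3.05 in ESC, at percentile 98.2 of the tested genes, and 1.68 in NPC, at percentile 94.2. FGF8 thus ranked high in both states, and the medians over all tested genes were -0.33 in ESC and -0.29 in NPC. The primitive streak markers, which FGF8 can accompany, had a summed RNA level of 11 to 11.8 CPM in ESC and 4.68 to 5.21 CPM in NPC, and a summed ribosome-bound level of 251 to 280 CPM in ESC and 23.1 to 30.6 CPM in NPC; of the 6 measured, 1 rose and 3 fell in RNA, 3 fell in ribosome-bound RNA, none was at 0, and their part in the FGF8 values was not tested.

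Among the receptors and feedback genes of FGF8, the receptor FGFR3 and the membrane protein FLRT3 rose in RNA, and the genes that fell there included the feedback inhibitor SPRY4 and the ETS factor ETV4. Of 15 genes tested in RNA, 2 rose, 8 fell and 5 did not pass, with a median log2 fold change of -0.33. FGFR3 went from 23.2 to 130 CPM (log2 2.41 ± 0.22, adjusted p = 5.69e-05, edgeR) and FLRT3 from 0.980 to 22.2 CPM (log2 4.44 ± 0.32). ETV4, an ETS factor switched on by FGF signalling, went from 354 to 56.6 CPM (log2 -2.72 ± 0.15), and SPRY4, a feedback inhibitor of the same pathway, from 382 to 96.5 CPM (log2 -2.05 ± 0.09). Both also fell in ribosome-bound RNA, with log2 fold changes of -3.20 and -1.75. The part of FGF8, or of the culture conditions of each state, in these changes was not tested. In ribosome-bound RNA 6 of the 15 rose and 7 fell. Those that fell included the receptor FGFR4, with log2 fold changes of -2.17 ± 0.27 there and -1.30 ± 0.28 in RNA. SPRY2 and DUSP6 also fell in ribosome-bound RNA, by log2 fold changes of -0.82 and -0.76. These 3 were named after their values were seen. The feedback inhibitors SPRED1 and SPRED2, chosen after their values were seen, were among those that rose there, with log2 fold changes of 1.89 ± 0.25 and 0.93 ± 0.21, while their RNA differences of 0.20 and 0.19 did not pass (adjusted p = 0.195 and 0.139, edgeR; 0.31 and 0.17, adjusted p = 8.11e-05 and 0.0289, without RNA_ESC replicate 3). FGFR2, chosen in the same way, had 106 and 128 CPM in RNA (log2 0.21, adjusted p = 0.142, edgeR; 0.30 and 8.15e-05 without RNA_ESC replicate 3) and rose in ribosome-bound RNA from 35.9 to 144 CPM (log2 2.04 ± 0.19).

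The paired-box factor PAX2 (chr10:100735396-100829944, 940 kb from FGF8) had the largest fold change of the tested members in both assays. Its RNA counts in the 3 ESC libraries were 5, 13 and 6 (0.246, 0.499 and 0.307 CPM), against 493, 616 and 538 in the 3 NPC libraries (18.9, 17.5 and 16.5 CPM). Its ribosome-bound counts were 2, 1 and 2 in ESC and 53, 74 and 92 in NPC (16.2, 21.1 and 20.7 CPM). The states were far apart in both assays, and all 3 ribosome-bound ESC libraries held 3 counts or fewer. The log2 fold change was 5.52 ± 0.24 in RNA (45.9-fold, adjusted p = 1.47e-06, edgeR) and 5.09 ± 0.39 in ribosome-bound RNA (34-fold, adjusted p = 1.26e-06, edgeR). From the summed counts alone, the ribosome-bound ratio of 35.5 had a 95% exact interval of 15 to 110, for counting error only. The change in translational efficiency was -0.40 ± 0.61 and did not pass (adjusted p = 0.690, edgeR).

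PAX2 is also a marker of other lineages, whose genes were measured beside it. Of 9 kidney and thyroid markers, 4 were tested in RNA, of which 1 rose and 1 fell; CDH16 was at 0 throughout, NKX2-1 in every group but the RNA of NPC, and WT1 in the RNA of ESC. Their summed RNA level was 177 to 198 CPM in ESC and 225 to 247 CPM in NPC, most of it from SALL1, which neural cells also express. In ribosome-bound RNA, where 1 of 2 tested rose and FOXE1 was at 0 in ESC, the sum was 54.1 to 69.3 CPM in ESC and 194 to 201 CPM in NPC. Of 8 placode and otic markers, 7 were tested in RNA, of which 5 rose and 1 fell; FOXI1 was at 0 throughout, and their summed RNA level was 33.9 to 38.4 CPM in ESC and 64.6 to 66.5 CPM in NPC. In ribosome-bound RNA 4 of 6 tested rose, and the sum was 15.3 to 24.8 CPM in ESC and 66.9 to 85.1 CPM in NPC. The part of such cells in the rise of PAX2 and PAX8 was not tested.

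PAX8, the close relative of PAX2, rose by a small amount in RNA and was scarcely seen on ribosomes. The gene lies at chr2:113215997-113278921. RNA levels were 1.13, 1.08 and 1.38 CPM in ESC and 2.03, 2.11 and 2.26 CPM in NPC, with no overlap, and the log2 fold change was 0.77 ± 0.19 (1.71-fold, adjusted p = 0.00919, edgeR). Ribosome-bound counts were 3, 1 and 1 in ESC and 3, 1 and 0 in NPC, too few to test, and the ratio of the summed counts was 0.648 with a 95% exact interval of 0.129 to 3.01. The antisense gene PAX8-AS1 overlaps PAX8 over 31497 bases. Its RNA was 24.9 ± 0.236 CPM in ESC and 37.4 ± 0.152 CPM in NPC (SD, n = 3) and rose by a log2 of 0.52 ± 0.11 (adjusted p = 0.00394, edgeR). The use of strand in counting is not given, so reads of the 2 genes in the shared part cannot be told apart.

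The Engrailed genes, homeodomain factors that mark midbrain and anterior hindbrain once the isthmus is set up, stayed at a few counts per library in both states. EN1 (chr2:118842171-118847648) had RNA counts of 4, 4 and 5 in ESC and 4, 6 and 4 in NPC, or 0.202 ± 0.0514 and 0.149 ± 0.0245 CPM. Its ribosome-bound counts were 1, 0 and 3 in ESC and 3, 1 and 2 in NPC. EN1 passed the filter on low counts in neither assay; the ratio of its summed RNA counts, NPC over ESC, was 0.756 with a 95% exact interval of 0.330 to 1.75, and that of its ribosome-bound counts 1.21 with an interval of 0.288 to 5.85.

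EN2 (chr7:155458129-155464831) had RNA counts of 6, 10 and 9 in ESC and 13, 9 and 5 in NPC, with overlapping states. The log2 fold change was -0.44 ± 0.49 (adjusted p = 0.475, edgeR), and the ratio of summed counts 0.758 with a 95% exact interval of 0.423 to 1.36. No ribosome-bound count was found in ESC, which allows up to 0.330 CPM over the group, and NPC had 0, 2 and 1. EN2 was thus the only member at the count floor, taken as 3 counts or fewer over the 3 libraries of a group, and it was there in both ribosome-bound groups. No member was at the floor in total RNA. In single RNA libraries only IRX5 had 3 counts or fewer, in 1 of 3 of the ESC ones. By single libraries, EN1, EN2 and PAX8 had 3 counts or fewer in all 6 ribosome-bound libraries, PAX2 in 3 of 3 of the ESC ones, and IRX3 and IRX5 each in 2 of 3 of the ESC ones.

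The hindbrain-side factor GBX2 was abundant in both states, and its RNA fell while its ribosome-bound level passed the test in neither direction. The gene lies at chr2:236161340-236168386. Total RNA had 77.2, 82.9 and 66.6 CPM in ESC and 43.2, 43.4 and 41.8 CPM in NPC, so every NPC library was below every ESC library. Ribosome-bound RNA had 21.2, 15.7 and 22.5 CPM in ESC and 25, 29.6 and 27.0 CPM in NPC, where the order was the opposite. RNA was 1.86-fold lower in NPC (log2 -0.89 ± 0.12, adjusted p = 0.000566, edgeR). The ribosome-bound difference of 0.49 ± 0.21 missed the threshold (adjusted p = 0.0620, edgeR). The change in translational efficiency was 1.33 ± 0.23, or 2.51-fold (adjusted p = 0.000322, edgeR). The log2 ratio of ribosome-bound to total RNA of GBX2 was -1.91 in ESC, at percentile 12.2 of the tested genes, and -0.64 in NPC, at percentile 37.5.

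**Figure D2:**
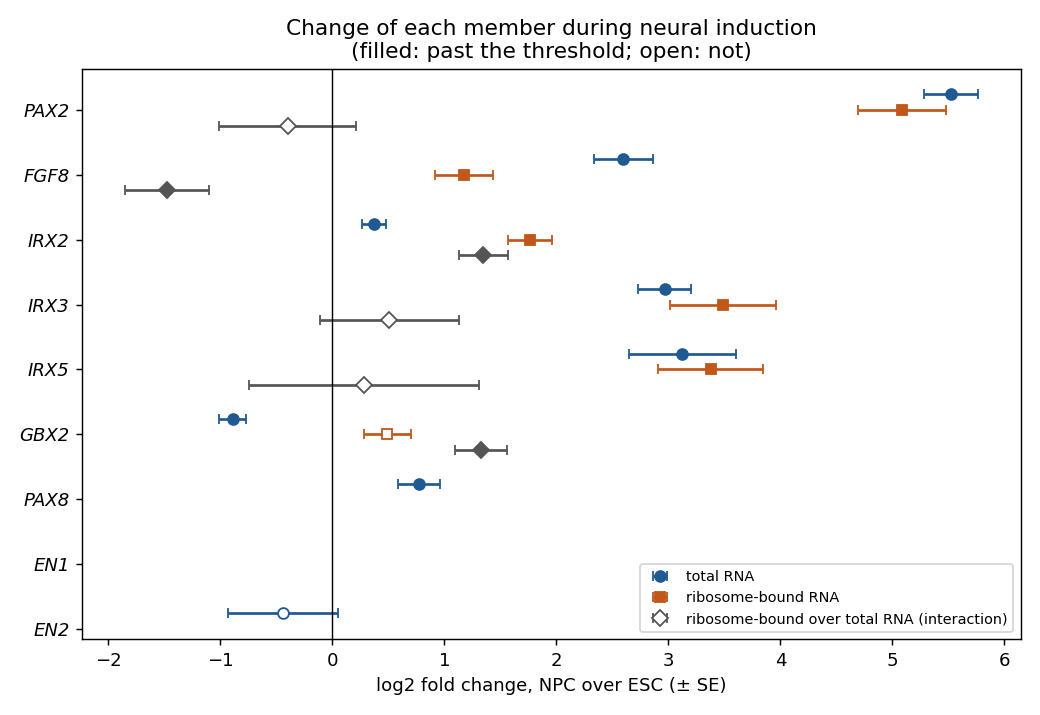
Log2 fold change of NPC over ESC for each of the 9 genes, with its SE, in total RNA (blue circles), ribosome-bound RNA (orange squares) and their ratio (grey diamonds); filled symbols passed the threshold and genes without a symbol were not tested. GBX2 sits at -0.89 in RNA and 0.49 in ribosome-bound RNA, and FGF8 at 2.60 and 1.17.

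Because GBX2 and OTX2 face each other across the isthmus, their counts were set against each other within each library. OTX2 gave 0.118, 0.0904 and 0.133 counts per GBX2 count in the RNA of ESC, and 2.19, 2.04 and 2.26 in that of NPC. On ribosomes the ratio was 2.60, 2.82 and 2.31 in ESC and 3.05, 3.02 and 3.64 in NPC. Thus GBX2 counts exceeded OTX2 counts only in the RNA of ESC, and OTX2 counts exceeded GBX2 counts in the other 9 libraries. The ratio is not corrected for gene length. OTX2, chosen after its values were seen, rose in RNA from 8.48 ± 0.868 to 92.5 ± 3.47 CPM (SD, n = 3; log2 3.38 ± 0.12, adjusted p = 6.78e-07, edgeR), and in ribosome-bound RNA from 50.4 ± 5.60 to 88.0 ± 11 CPM (log2 0.84 ± 0.19, adjusted p = 0.00204, edgeR). Its change in translational efficiency was -2.59 ± 0.22 (adjusted p = 1.07e-06, edgeR), opposite in sign to that of GBX2.

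**Figure D3:**
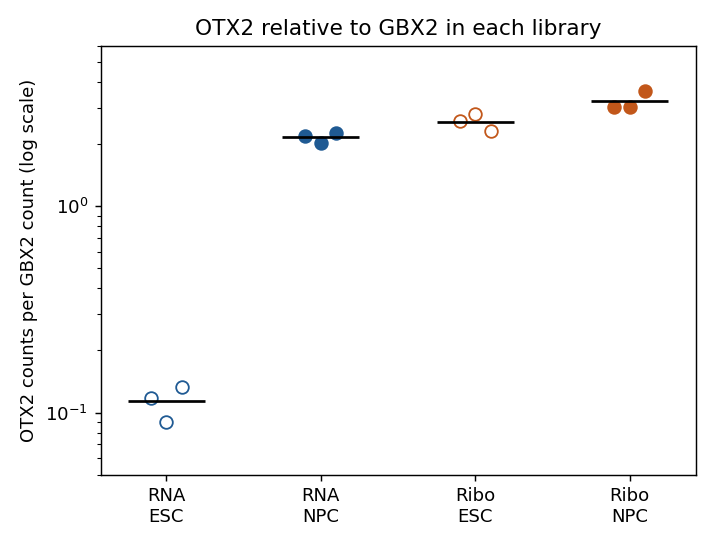
OTX2 counts per GBX2 count in each of the 12 libraries on a log axis; open points are ESC, filled points NPC, and bars are group means. The 3 RNA libraries of ESC lie between 0.0904 and 0.133 and the other 9 between 2.04 and 3.64.

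The 3 Iroquois members rose in both assays; the differences between these genes were not tested. IRX2 (chr5:2735635-2751677) had RNA levels of 53.7, 58.4 and 60.8 CPM in ESC and 83.5, 77.8 and 72.7 CPM in NPC. Its ribosome-bound levels were 98.1, 95.3 and 92.3 CPM in ESC and 327, 276 and 344 CPM in NPC. The states did not overlap in either assay. RNA rose 1.29-fold (log2 0.37 ± 0.10, adjusted p = 0.0185, edgeR), and this call was lost without RNA_ESC replicate 1 (0.29, adjusted p = 0.111), RNA_ESC replicate 2 (0.36, 0.0556), RNA_NPC replicate 1 (0.32, 0.0950) or RNA_NPC replicate 2 (0.37, 0.0732). Ribosome-bound RNA rose 3.40-fold (log2 1.77 ± 0.20, adjusted p = 1.75e-05, edgeR). The change in translational efficiency was 1.35 ± 0.22, or 2.54-fold (adjusted p = 0.000186, edgeR). IRX2 moved from a log2 ratio of 0.72 (percentile 78.0) in ESC to 2.01 (percentile 96.2) in NPC.

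IRX3 (chr16:54283304-54286787) had RNA counts of 8, 20 and 12 in ESC and 133, 161 and 172 in NPC, or 0.592 ± 0.188 and 4.98 ± 0.354 CPM. Its ribosome-bound counts were 8, 2 and 2 in ESC and 33, 56 and 81 in NPC, or 1.33 ± 1.11 and 14.7 ± 4.19 CPM. No ESC library reached an NPC library in CPM. The rise was 7.82-fold in RNA (log2 2.97 ± 0.24, adjusted p = 2.89e-05, edgeR) and 11.2-fold in ribosome-bound RNA (log2 3.49 ± 0.47, adjusted p = 6.75e-05, edgeR; 4.42 without RIBO_ESC replicate 1). The change in translational efficiency of 0.51 ± 0.62 did not pass (adjusted p = 0.528, edgeR).

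IRX5 (chr16:54930865-54934485) was the scarcer of the pair in counts. Its RNA counts were 4, 1 and 5 in ESC and 40, 60 and 35 in NPC, and its ribosome-bound counts 2, 1 and 5 in ESC and 23, 35 and 46 in NPC. The states did not overlap. The log2 fold change was 3.12 ± 0.48 in RNA (8.71-fold, adjusted p = 0.00094, edgeR) and 3.38 ± 0.47 in ribosome-bound RNA (10.4-fold, adjusted p = 7.64e-05, edgeR; 3.99 without RIBO_ESC replicate 3). Its change in translational efficiency, 0.28 ± 1.03 (adjusted p = 0.844, edgeR), was too imprecise to give a direction, and it turned to -0.20 without RNA_ESC replicate 3. The 95% exact intervals of the summed count ratios were 5.00 to 20.2 for total RNA and 5.15 to 25 for the ribosome-bound libraries.

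The Iroquois genes lie in 2 clusters of 3, and the genes at the ends and between were set beside the members. On chromosome 5, IRX4 lies 848 kb and IRX1 844 kb from IRX2. IRX4 fell in RNA from 17.6 to 3.58 CPM (log2 -2.38 ± 0.37, adjusted p = 0.00109, edgeR) and in ribosome-bound RNA from 21.8 to 6.07 CPM (log2 -1.80 ± 0.25, adjusted p = 8.80e-05, edgeR). IRX1, chosen after its values were seen, went from 18.7 ± 7.69 to 36.7 ± 3.72 CPM in RNA (SD, n = 3; log2 0.89 ± 0.30, adjusted p = 0.0387, edgeR). That call was lost without RNA_ESC replicate 1 (adjusted p = 0.0606), RNA_NPC replicate 1 (0.113), RNA_NPC replicate 2 (0.0816) or RNA_NPC replicate 3 (0.0700). In ribosome-bound RNA IRX1 rose from 69.5 to 241 CPM (log2 1.83 ± 0.21, adjusted p = 1.97e-05, edgeR), a size like that of IRX2, while IRX4 moved the other way.

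The transcript C5orf38, named IRX2-DT in RefSeq, lies 216 bases beyond the start of IRX2, so the IRX2 stretch printed above covers the whole gap between them. It went from 10.4 to 7.12 CPM in RNA (log2 -0.62 ± 0.20, adjusted p = 0.0285, edgeR), a call lost without RNA_ESC replicate 1 (adjusted p = 0.0806) or RNA_NPC replicate 1 (0.0664), 2 (0.0699) or 3 (0.113). In ribosome-bound RNA it fell from 22 to 5.5 CPM (log2 -1.94 ± 0.34, adjusted p = 0.000448, edgeR), opposite in direction to IRX2. Its change in translational efficiency was -1.37 (adjusted p = 0.0130, edgeR).

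On chromosome 16, IRX3 and IRX5 lie 644 kb apart and IRX6 390 kb beyond IRX5. IRX6 fell in RNA from 1.21 to 0.247 CPM (log2 -2.35 ± 0.39, adjusted p = 0.00150, edgeR) and was not tested in ribosome-bound RNA. CRNDE, annotated as a long noncoding RNA 1979 bases from IRX5, rose with IRX5 and IRX3, from 2.51 to 11.9 CPM in RNA (log2 2.18 ± 0.21, adjusted p = 8.87e-05, edgeR) and by a log2 of 2.88 ± 0.44 in ribosome-bound RNA (adjusted p = 0.000158, edgeR). In each cluster, then, an outer gene fell in RNA (IRX4, IRX6) while the members rose.

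**Figure D4:**
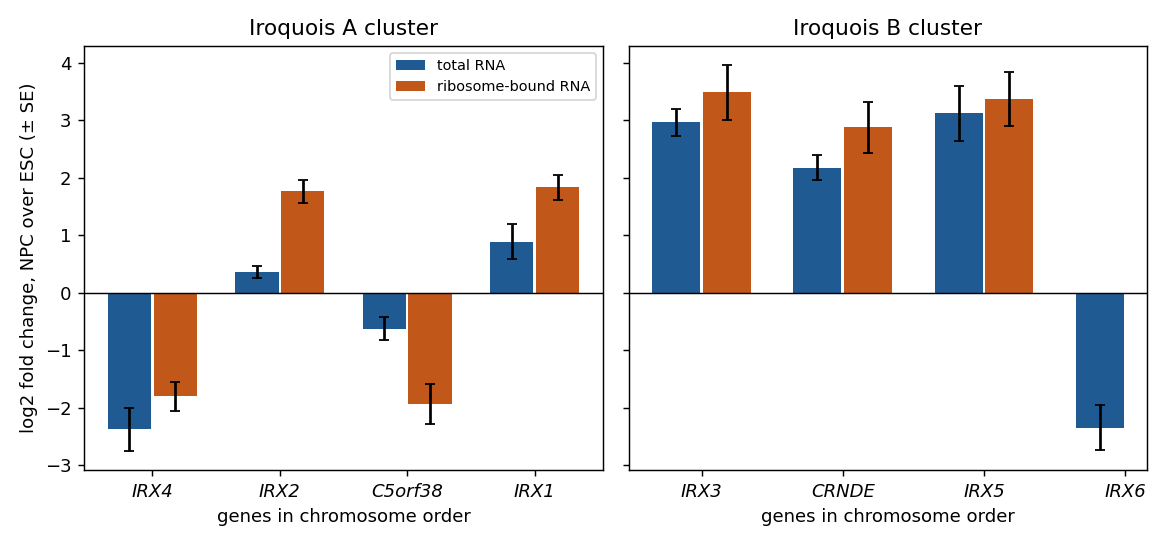
Log2 fold change of NPC over ESC (bars, with SE) for the Iroquois genes and the transcripts beside them, in chromosome order and not to scale, in total RNA (blue) and ribosome-bound RNA (orange); IRX6 has no ribosome-bound bar because it was not tested there. IRX4 at -2.38 and IRX6 at -2.35 in RNA fell, and IRX3, CRNDE and IRX5 rose in both assays.

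Other PAX genes and genes of the same territory were read from lists. Of 10 further IRX, PAX and related genes, 7 were tested in RNA; 4 rose, and 3 fell (IRX4, IRX6 and, outside the naming rule, MKX, with 59 counts in ESC and 2 in NPC), with a median log2 fold change of 0.89. The largest rises were PAX3, a dorsal neural and neural crest factor, from 0.163 to 92.2 CPM (log2 9.0 ± 0.26), and PAX6, a neuroectoderm factor, from 0.690 to 43.3 CPM (log2 5.88 ± 0.17).

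Of 13 isthmic and midbrain partners, 11 were tested in RNA; 8 rose, 2 fell and 1 did not pass, with a median of 2.08. LMX1A, a roof plate and midbrain floor plate factor, went from 0.0804 to 17.7 CPM (log2 7.71 ± 0.30; 8.45 without RNA_ESC replicate 3), and MEIS2, a homeodomain partner of midbrain factors, from 0.560 to 20.3 CPM (log2 5.12 ± 0.20). PAX5, which joins PAX2 and PAX8 at the isthmus in the embryo, fell from 29.4 to 6.51 CPM (log2 -2.25 ± 0.13, adjusted p = 5.66e-06, edgeR), against the direction of both. The other that fell was FGF18 (log2 -1.54 ± 0.39, adjusted p = 0.0109, edgeR), outside the naming rule, and it lost the call without RNA_NPC replicate 2 (0.0508) or 3 (0.0507). WNT1, the other signal of the isthmus, had at most 4 counts in any group.

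Forebrain genes had the highest RNA median of the 6 pathway lists: of 10, 9 were tested in RNA, 7 rose and none fell, with a median log2 fold change of 3.71. DMRT3, a dorsal telencephalic factor, went from 0.0719 to 20.8 CPM. Of 13 hindbrain and HOX genes only 6 were tested in RNA, of which 3 rose, 2 fell and 1 did not pass, with a median of 0.83. EGR2, a hindbrain segment factor, rose from 0.774 to 2.37 CPM (log2 1.52 ± 0.24, adjusted p = 0.00113, edgeR) and HOXB3 from 1.5 to 3.68 CPM (log2 1.22 ± 0.26, adjusted p = 0.00485, edgeR). HOXB2 fell from 2.50 to 1.2 CPM (log2 -1.15 ± 0.20, adjusted p = 0.00194, edgeR). Outside the naming rule, CYP26C1, a retinoic acid-degrading enzyme, rose from 0.236 to 0.617 CPM (adjusted p = 0.0267, edgeR), a call lost in 4 of the 6 fits that leave out a library (without RNA_ESC replicate 1 or 2, or RNA_NPC replicate 1 or 2; adjusted p 0.0708 to 0.108), in the blocked fit by replicate number (adjusted p = 0.0515) and with DESeq2 (adjusted p = 0.0579). HOXB1 had 37 RNA counts in ESC and 0 in NPC, at least 17.6-fold lower against 3 counts over the group. In ribosome-bound RNA, 6 of 6 tested forebrain genes rose (median 4.81), and neither of the 2 tested hindbrain genes passed.

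**Figure D5:**
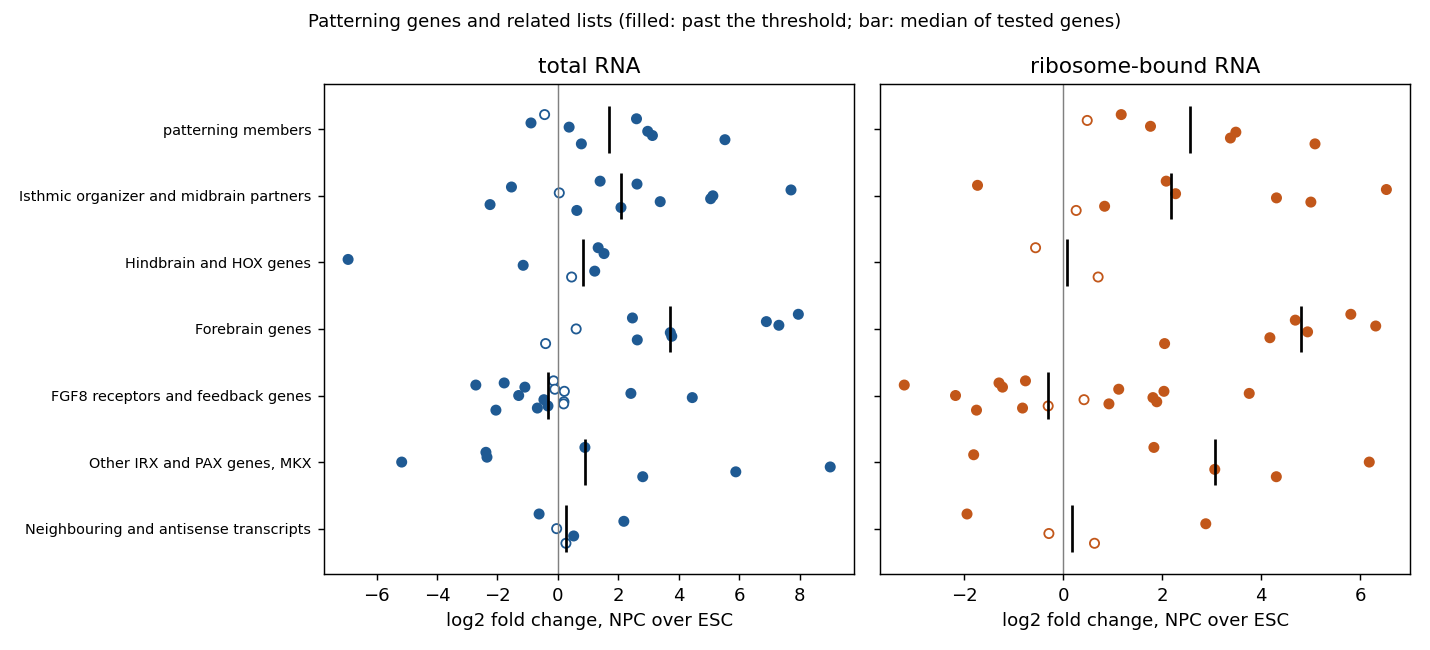
Log2 fold change of NPC over ESC of each tested gene of the 9 patterning genes and of 6 related lists, in total RNA (left) and ribosome-bound RNA (right); each point is a gene, filled where it passed the threshold, and bars are medians. The RNA median is 1.69 for the patterning genes, 3.71 for forebrain genes and -0.33 for FGF8 receptors and feedback genes; the leftmost point, HOXB1, has 0 counts in NPC, so its fitted value is no measured fold.

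The genes whose profile over the 12 libraries was nearest to each member were found by the root mean square distance of centred log2(CPM + 0.5), among 11793 candidates. For PAX2 they were NR2F2 (distance 0.270, r = 0.992), BMP5 (0.288) and BMPER (0.313). For GBX2 they were SPIDR (0.171, r = 0.973), NKAIN1 (0.175) and CHST15 (0.188), and for IRX2 GRIPAP1 (0.173, r = 0.983), TRIM52 (0.177) and ANKRD11 (0.182). FGF8 was nearest to FZD2 (0.370, r = 0.976), CLU (0.389) and GPC3 (0.424). IRX5 was nearest to TSPYL2 (0.302, r = 0.978), CEP112 (0.395) and SOX11 (0.397), and IRX3 to LINC02477 (0.359), ACTN3 (0.395) and ARHGEF38 (0.408). PAX8 was nearest to MTERF4 (0.242, r = 0.947), PEX2 (0.246) and ZBED8 (0.264), and EN2 to DGKA (0.236, r = 0.832), PFKFB3 (0.246) and PAN3 (0.247). PAX8 and EN2 had 3 counts or fewer in every ribosome-bound library. Their profiles there rest in large part on the 0.5 added to CPM, which can make a distance small. IRX3 and IRX5 did not have each other among their 3 nearest. The 12 points share libraries and fall into 4 groups, so these likenesses are a description.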

How the data were processed

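The authors deposited a single table of whole-number read counts per gene symbol for the 12 libraries, with no normalization. The submitters' processing notes list featureCounts 1.6.4, STAR 2.7.1a, Bowtie 1.2 and cutadapt 1.18, with GRCh38 (hg38) as build. The sources used here give neither what each tool was used for nor the annotation release or strand setting. Coordinates and promoter stretches came from RefSeq tables (GRCh38.p14), which were matched by symbol; 5 of the 9 members had a promoter entry.

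Counts were tested with edgeR 4.0.16 in R 4.3.3 (quasi-likelihood F test after filterByExpr and TMM scaling, threshold 0.05 after Benjamini-Hochberg adjustment over all tested genes), with a fit for each assay and 1 fit over all 12 libraries for translational efficiency, on genes that passed the filter in both assays. SE is the absolute log2 fold change divided by the square root of F. The fits were also run on counts simulated with dispersions that edgeR estimated from these data. That run cannot show that the model suits the real spread between libraries. CPM used library totals. Ratios of summed counts have 95% exact binomial intervals; these and the floor of 3 counts cover counting error only. DESeq2 1.42.0, other scalings and filters, a replicate block and leaving out each library were tried as alternatives. Further genes were named by rule: the 2 largest rises and falls past the threshold in RNA of each list, given a mean of 1 CPM or more in whichever state was higher, and the 3 nearest profiles of each member tested in RNA; 1 gene that the rule names is not reported here. Members and lists were chosen with earlier results of these data known.

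Replicate numbers were checked for pairing: same-numbered RNA libraries of ESC and NPC deviated together (r = 0.369, 0.250 and 0.584), although ESC replicate 2 correlated best with NPC replicate 1. The pairing comes from the data and not from a stated shared culture. Figures were drawn with matplotlib 3.10.9.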

Additional observations from a re-analysis of the deposited data

Results flagged for a closer look

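The change from ESC to NPC was compared between ribosome-bound and total RNA for 6 members, by the interaction of assay and state in edgeR. It differed for 3 of them, beside 41.9% of the 11866 genes tested. The other 3, PAX2, IRX3 and IRX5, had only 5, 12 and 8 ribosome-bound counts in ESC. Their SEs of 0.61, 0.62 and 1.03 were larger than those of GBX2, IRX2 and FGF8 (0.23, 0.22 and 0.37), so these tests were less precise. For GBX2, RNA was lower in all 3 NPC libraries. Ribosome-bound RNA was higher in all 3 but missed the threshold (adjusted p = 0.0620, edgeR). The difference between assays was 1.33 on the log2 scale. For IRX2 it was 1.35, with both assays higher in NPC. For FGF8 it was -1.48, with both assays higher in NPC and the ribosome-bound rise the smaller.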

How the results depend on the processing

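Counts of members and of all genes past the threshold stayed within 1.5 times in 175 of 176 comparisons with an alternative. The exception, chosen after seeing the data, left out RNA_ESC replicate 3 and RIBO_ESC replicate 2 together, and raised the genes with lower translational efficiency from 2254 to 3603; leaving out libraries gave 1735 to 3603, and the cause was not tested. For counts of members the bound is wide: 6 members higher in RNA falling to 5, where IRX2 lost its call, stayed within it. None of the changes that reversed had passed the threshold. The translational efficiency change of IRX5 became -0.20 without RNA_ESC replicate 3 and -0.43 without that library and RIBO_ESC replicate 2, and ranged up to 0.92 over the fits that left out libraries. Without RIBO_ESC replicate 1, those of LMX1A and DMRT3 became 3.28 and 3.64, with lowest values of -1.95 and -2.74 without other libraries. The RNA change of LMX1B ranged from -0.17 without RNA_ESC replicate 3 to 0.17 without RNA_ESC replicate 2. Of the other values of single genes, 29 lost and 13 gained a call under an alternative, 7 levels moved and 1351 kept direction and call.

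With the replicate number as a block, 6 members were higher and 1 lower in RNA, and 5 higher in ribosome-bound RNA, as without it; no member's call changed. Over all genes the block gave 5103 higher and 4973 lower in RNA. Ribosome-bound libraries share only a number: same-numbered libraries of ESC and NPC correlated at -0.162, -0.255 and -0.00723 in their deviations. EN1, EN2 and PAX8 had too few ribosome-bound counts to be tested. For EN1 and PAX8, changes within the 95% exact intervals of 0.288 to 5.85 and 0.129 to 3.01 were not detectable at this depth. EN2, with 0 counts in ESC and 3 in NPC, had no such ratio.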

Other observations

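Among the isthmic and midbrain partners, 8 were tested for translational efficiency, of which 1 was higher, 2 were lower and 5 did not pass. Over all 11866 genes tested, 41.9% passed. The genes that follow were chosen after their values were seen. FGF17, of the same subfamily as FGF8, rose in RNA from 0.731 ± 0.190 to 4.78 ± 0.643 CPM (SD, n = 3; log2 2.61) and fell in ribosome-bound RNA from 40.5 ± 3.26 to 11.9 ± 2.67 CPM (log2 -1.73). Its change in translational efficiency was -4.39 ± 0.34 (adjusted p = 9.97e-07, edgeR). Its log2 ratio of ribosome-bound to total RNA was 5.06 in ESC, at percentile 99.7 of the tested genes, and 1.23 in NPC, at percentile 89.4.

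LMX1B, a homeodomain factor of the isthmus and midbrain, had RNA of 25.4 ± 6.54 CPM in ESC and 27.6 ± 0.939 CPM in NPC (log2 0.04, adjusted p = 0.872, edgeR) and rose in ribosome-bound RNA from 2.59 ± 1.37 to 12.8 ± 2.00 CPM (log2 2.27 ± 0.38, adjusted p = 0.000288, edgeR). PAX5 in ESC had 29.4 CPM in RNA (1947 counts) and 1.09 CPM in ribosome-bound RNA (11 counts). In NPC it had 6.51 CPM (609 counts) and 0.102 CPM (1 count). It was not tested in ribosome-bound RNA or for translational efficiency. PAX7, a dorsal midbrain factor outside the isthmic list, rose in both assays. It went from 15.3 to 112 CPM in RNA (log2 2.80 ± 0.12) and from 4.13 to 83.4 CPM in ribosome-bound RNA (log2 4.30 ± 0.28). Its change in translational efficiency was 1.46 ± 0.30 (adjusted p = 0.00123, edgeR).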
